A study of Mus musculus with 4 samples.

Results

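GATA4 peaks far from acetylated chromatin were described in the ventricles of mouse hearts at postnatal day 6. A peak of the GATA4 list on chromosomes 1 to 19 belonged to this set when it shared no base with a peak of H3K27ac, histone H3 acetylated at lysine 27, and lay more than 25 kb, border to border, from the nearest one. The set was thus chosen by the positions of GATA4 and H3K27ac peaks and nothing else, and its distances are given as a description. The rule took 1153 of 10319 autosomal GATA4 peaks, 11.2% (95% Wilson interval 10.6 to 11.8), and 10530 peaks are in the GATA4 list as a whole. The other 9166 autosomal GATA4 peaks were the background. Of these, 8295 lay on H3K27ac and 871 lay outside it but within 25 kb. The chromatin came from wild-type C57BL/6 mice with no treatment listed, and each immunoprecipitation pooled the ventricles of 10 hearts. Antibodies against TCF7L2 and GATA4 and against H3K27ac gave 1 peak list each, of 774, 10530 and 75011 peaks, and an input sample was not analysed here. The labels give 2 biological replicates per antibody, but with 1 list each no value here has a replicate error, and no test over samples exists. Intervals cover counting error over peaks only, and neighbouring peaks are not independent. The lists hold positions and no height, so the depth behind a peak is unknown.

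GATA4 is a zinc-finger transcription factor that binds the GATA motif and is needed for heart formation and for cardiomyocyte growth. It can bind nucleosomal DNA, and it recruits the acetyltransferase p300, which acetylates H3K27 at active enhancers and promoters. TCF7L2, of the TCF/LEF family, carries β-catenin to Wnt target genes. Ventricles hold cardiomyocytes, fibroblasts, endothelial and blood cells. In such a mixture, a peak in a minority of cells and a weak peak in all cells cannot be told apart. Peaks are named by their mm9 positions, counted from 1, without genes or sequences, since the annotation used here belongs to another build.

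Far from acetylation, GATA4 peaks were sparse. The sequence more than 25 kb from H3K27ac made up 1329 Mb, 55.1% of the 2411 Mb that the lists span on the autosomes. It held 0.868 GATA4 midpoints per Mb (exact Poisson interval 0.818 to 0.919). Sequence under H3K27ac held 33.3 per Mb (32.6 to 34.04), a density 38.4-fold higher. The rule used both lists, so that contrast is given as a description. Within the far sequence the density showed no steady fall with distance. It was 0.881 per Mb (0.767 to 1.01) at 25 to 50 kb, 0.893 (0.779 to 1.02) at 50 to 100 kb, 0.944 (0.841 to 1.06) at 100 to 250 kb and 0.801 (0.725 to 0.882) beyond 250 kb. These 4 intervals overlap one another, which does not show that the densities are equal, and the value beyond 250 kb was the lowest. Closer in, the density was 3.12 per Mb (2.80 to 3.46) in the first 1 kb beside H3K27ac, 0.703 (0.601 to 0.816) at 1 to 5 kb and 0.940 (0.856 to 1.03) at 5 to 25 kb. The interval at 1 to 5 kb lies below that of all far sequence, and the one at 5 to 25 kb overlaps it. TCF7L2 midpoints were rarer in every class. They ran from 2.52 per Mb (2.33 to 2.73) on H3K27ac to 0.0512 (0.0397 to 0.0649) in all far sequence. Their density was 0.0942 per Mb (0.0597 to 0.141) at 25 to 50 kb and 0.0312 (0.0178 to 0.0506) beyond 250 kb. Without 1 window on chromosome 8, described below, the value at 25 to 50 kb was 0.0574 (0.0314 to 0.0962), so that the intervals at these distances overlap. Stretches of unsequenced or unmappable DNA were not removed from the lengths.

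**Figure D1:**
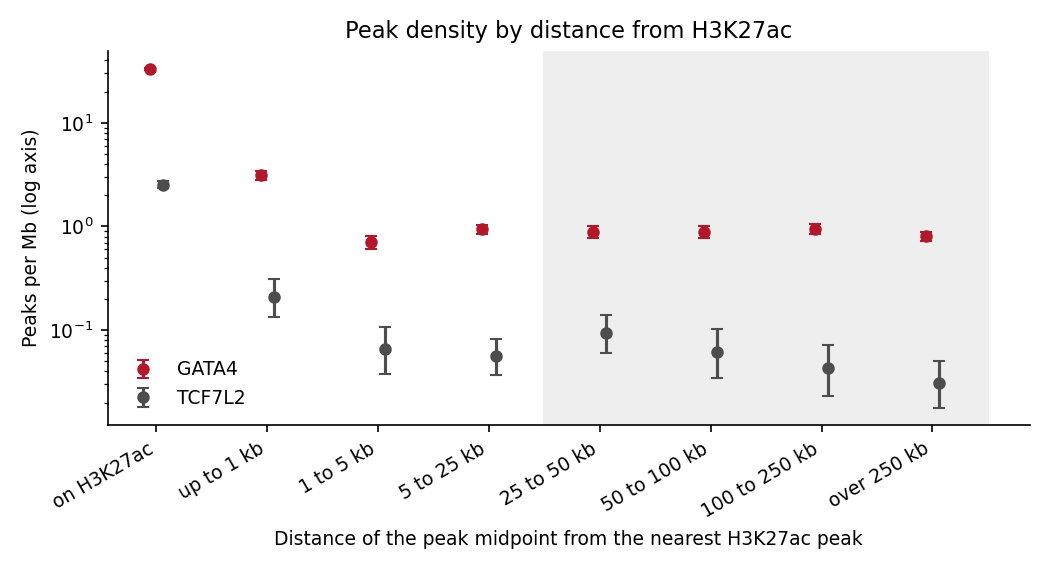
Peaks per Mb (vertical log axis) by distance of the peak midpoint from H3K27ac (horizontal axis) for GATA4 in red and TCF7L2 in grey, with exact Poisson intervals; the shaded classes lie over 25 kb away. GATA4 sits between 0.801 and 0.944 per Mb in all 4 shaded classes, against 33.3 on H3K27ac.

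The distances themselves, which the rule fixed from below, ran far beyond the limit. Their median was 163 kb, with quartiles of 62.8 and 383 kb. Of the 1153 peaks, 215 lay 25 to 50 kb from H3K27ac, 218 at 50 to 100 kb, 309 at 100 to 250 kb, 200 at 250 to 500 kb, 131 at 500 to 1000 kb and 80 farther than that. The farthest, on chromosome 17 from 92235611 to 92235735 and 125 bp wide, was 2912 kb away, and the next, also of 125 bp, stood on the same chromosome from 92822912 to 92823036, 2324 kb away. They were followed by a close pair on chromosome 3, from 43826459 to 43826624 and from 43827021 to 43827192, 396 bp apart and 2279 kb from acetylation. The fifth, from 60742403 to 60742563 on chromosome 5, likewise had a neighbour 355 bp away. Just inside the limit lay peaks 25031 bp from H3K27ac on chromosome 9 (114959590 to 114959819), 25111 bp on chromosome 3 (65503682 to 65503810), 25206 and 25257 bp on chromosome 4 (101065952 to 101066098 and 146339085 to 146339216) and 25596 bp on chromosome 18 (59074908 to 59075365), with widths of 230, 129, 147, 132 and 458 bp. Just outside it lay peaks at 24910 bp on chromosome 16 (3820405 to 3820566), 24770 bp on chromosome 1 (88781865 to 88782094), 24756 and 24667 bp on chromosome 3 (99992855 to 99993081 and 97167523 to 97167704) and 24646 bp on chromosome 1 (158326358 to 158326482), with widths of 162, 230, 227, 182 and 125 bp. The limit therefore falls within a continuous run of distances. The H3K27ac peaks nearest to the far peaks had a median width of 1077 bp (quartiles 431 and 2275 bp), against 1286 bp for all autosomal H3K27ac peaks and 1032 bp for those nearest to the GATA4 peaks within 25 kb.

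The acetylation-free gaps that could hold such a peak, those over 50 kb between neighbouring H3K27ac peaks, numbered 6940 and had a median length of 102 kb. Most were empty: 6164 held no far GATA4 peak, 567 held 1, 128 held 2 and 81 held 3 or more. Occupied gaps were the longer ones, with a median of 492 kb against 91.9 kb for empty gaps. A member was present in 1.38% of gaps of 50 to 100 kb, in 8.51% at 100 to 250 kb, in 23.1% at 250 to 500 kb, in 38.5% at 500 to 1000 kb and in 75.5% of the 302 gaps over 1 Mb. Per Mb of the sequence in these gaps that lay more than 25 kb from both ends, the density was 0.815 (0.614 to 1.06), 0.904 (0.781 to 1.04), 0.878 (0.757 to 1.01), 0.832 (0.725 to 0.95) and 0.851 (0.777 to 0.931) in the same order, with overlapping intervals. The gap with the most members lay on chromosome 5 from 58509010 to 63107309 and held 10 in 4598 kb. Next came a gap of 4118 kb on chromosome 14 (106899687 to 111017647) with 8, a gap of 2132 kb on chromosome 8 (55894529 to 58026336) and one of 3315 kb on chromosome 14 (37949176 to 41264509) with 7 each, and 3 gaps with 6 each, of 4914 kb on chromosome 4 (35174079 to 40088491), 4447 kb on chromosome 6 (77426275 to 81873676) and 1460 kb on chromosome 10 (128389787 to 129849305). In the gap on chromosome 8, 6 of the 7 members also carried TCF7L2, against 2.78% of all far peaks. Of these 6, 5 were neighbours in a cluster of 22.4 kb, described below.

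Chromosomes differed in their share of far peaks. The share of a chromosome's GATA4 peaks that lay far from acetylation ran from 4.72% on chromosome 17 (23 of 487) and 4.99% on chromosome 11 (42 of 841) to 16.1% on chromosome 1 (110 of 685) and 18.9% on chromosome 14 (82 of 434). Chromosome 11 had the highest H3K27ac coverage, 17.0%, while chromosomes 17, 1 and 14 had 13.2%, 7.83% and 7.55%. The lowest coverage, 7.28%, was on chromosome 3, where the share of far peaks was 14.3%. A relation between coverage and share was not tested. Per Mb of far sequence the values ran from 0.504 (0.319 to 0.756) on chromosome 17 to 1.09 (0.869 to 1.36) on chromosome 14, with a median of 0.892. The pooled value of 0.868 lay within the Poisson interval of 16 of the 19 autosomes. Chromosome 11, with 0.853 per Mb (0.615 to 1.15), was among these 16.

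Width was not used by the rule, and far GATA4 peaks were narrow. Their median width was 149 bp (interval from order statistics 145 to 153), against 164 bp (158 to 170) for GATA4 peaks outside H3K27ac within 25 kb and 195 bp (193 to 198) for those on H3K27ac. The 3 intervals do not overlap. The most common width in the GATA4 list, 125 bp, is also the smallest found among the far peaks, and 351 of them had exactly that width, 30.4% (27.9 to 33.2). Autosomal peaks narrower than 125 bp stood only in the comparison groups, whose smallest widths were 31 bp within 25 kb and 8 bp on H3K27ac. Among all autosomal GATA4 peaks this share was 15.5% and among those outside the far set 13.7%, from which the far share differed by 16.8 percentage points (Newcombe interval 14.1 to 19.6). It was 21.8% (19.2 to 24.7) in the peaks within 25 kb, a difference of 8.63 points (4.77 to 12.4). Within the far set, width did not follow distance: the medians were 149, 145.5, 154, 144.5, 142 and 152.5 bp in the 6 distance classes from 25 to 50 kb up to over 1000 kb, all with overlapping intervals. By chromosome the median ran from 136.5 to 160 bp.

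**Figure D2:**
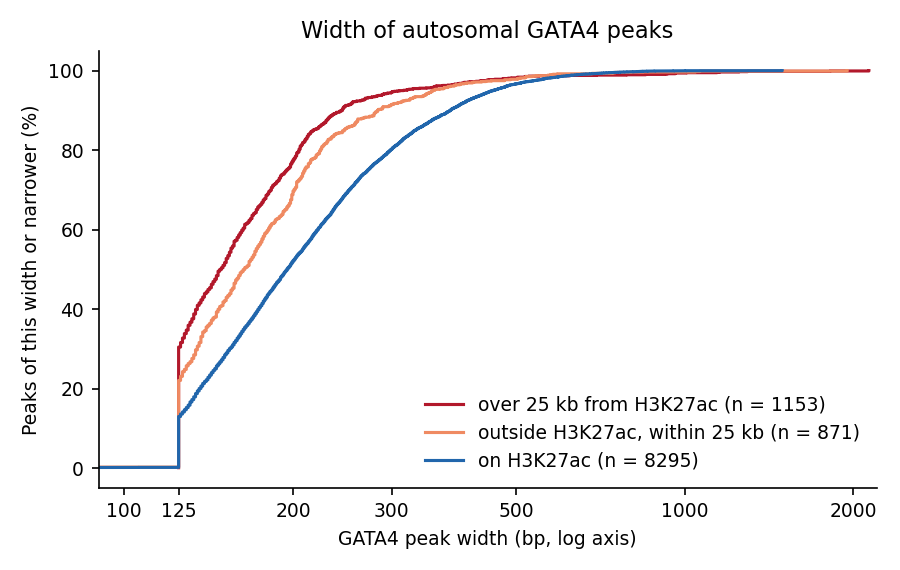
Cumulative share of autosomal GATA4 peaks (vertical axis, %) by width (horizontal log axis, bp) for the 3 distance groups. The curve for peaks over 25 kb from H3K27ac starts with a step of 30.4% at 125 bp and reaches 50% at 149 bp, against 195 bp for peaks on H3K27ac.

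A few far peaks were very wide. There were 21 of 500 bp or more, 1.82% (1.19 to 2.77), against 3.08% of all autosomal GATA4 peaks and 3.24% of the others, a difference from the latter of -1.42 points (-2.15 to -0.412). In the peaks within 25 kb the share was 2.18% (1.40 to 3.38), a difference of -0.36 points (-1.71 to 0.867), an interval that holds 0. The widest far peak was also the widest of the whole GATA4 list, 2132 bp on chromosome 10 from 86930353 to 86932484, and its nearest GATA4 neighbour was 186 kb away. It was followed by peaks of 1818 bp on chromosome 5 (15882301 to 15884118), 1295 bp on chromosome 7 (86149781 to 86151075), 1249 bp on chromosome 5 (89811344 to 89812592) and 1153 bp on chromosome 14 (121882374 to 121883526). The next 5 spanned 1142 bp on chromosome 1 (23539938 to 23541079), 1007 bp on chromosome 7 (130025689 to 130026695), 963 and 962 bp on chromosome 18 (81991704 to 81992666 and 54457259 to 54458220) and 931 bp on chromosome 5 (76855388 to 76856318). None of these 10 overlapped TCF7L2, whose nearest peak was 460 kb or more away. With 2.78% of all far peaks overlapping it, 10 peaks are too few to set the widest apart. The nearest GATA4 neighbour was 47.1 kb or more away for 9 of the 10, and 274 bp away for the peak of 962 bp.

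Far GATA4 peaks mostly stood alone. The next GATA4 peak was a median of 202 kb away (182 to 219), against 62.9 kb (54.8 to 72.3) for peaks outside H3K27ac within 25 kb and 23.6 kb (22.6 to 24.9) for those on H3K27ac. Another GATA4 peak lay within 10 kb of 137 far peaks, 11.9% (10.1 to 13.9), against 30.6% of all autosomal GATA4 peaks and 32.9% of the others, a difference from the latter of -21.0 points (-23.0 to -18.8). The share was 17.8% in the peaks within 25 kb, a difference of -5.91 points (-9.11 to -2.79). Within 50 kb, 243 far peaks had another, 21.1% (18.8 to 23.5), against 59.8% of all autosomal GATA4 peaks. GATA4 density differs between these groups as given above, and its part in the neighbour shares was not tested. The rule keeps GATA4 peaks on H3K27ac, 80.4% of autosomal ones, from lying within 10 kb of a far peak. The lower neighbour shares here and below, and the longer distances, therefore follow in part from it. Joined across gaps of up to 10 kb, the 1153 peaks formed 1081 loci: 1016 of 1 peak, 60 of 2, 4 of 3 and 1 of 5.

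Some far peaks had a neighbour very close by. Within 1 kb, 57 far peaks, 4.94% (3.84 to 6.35), had another, against 11.9% of all autosomal GATA4 peaks. The share was 6.08% (4.68 to 7.87) in the peaks within 25 kb, a difference of -1.14 points (-3.25 to 0.846), an interval that holds 0. The 57 formed 26 loci. Of the 31 gaps inside these loci, 28 were of 400 bp or less, 90.3% (75.1 to 96.7), with a median of 217 bp. On H3K27ac, 400 of 586 such gaps were of 400 bp or less, 68.3% (64.4 to 71.9), with a median of 225.5 bp. Outside H3K27ac within 25 kb it was 23 of 28 gaps, 82.1% (64.4 to 92.1), an interval that overlaps the far one, with a median of 126.5 bp. The bound of 400 bp was set after the gaps were seen. None of the 57 close far peaks overlapped TCF7L2. Over all far peaks the share was 2.78%, so 57 peaks are too few to set these apart. Their median width was 172 bp, against 147.5 bp for the other far peaks. In windows of 100 kb, 958 windows held 1 far peak, 76 held 2, 11 held 3 and 2 held 5. Of the 2 fullest windows, 1 was on chromosome 1 from 181800001 to 181900000. Its 5 peaks, 384, 923, 445, 491 and 272 bp wide from 181833015 to 181836065, were separated by gaps of 61, 154, 81 and 240 bp and lay 28.5 to 31.3 kb from an H3K27ac peak of 497 bp, with no TCF7L2 peak nearer than 1584 kb. Of the 11 windows with 3, the first in chromosome order were on chromosome 1 (79900001 to 80000000 and 197100001 to 197200000) and chromosome 2 (65800001 to 65900000), all without TCF7L2.

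TCF7L2 was not used by the rule, and the share of far GATA4 peaks it overlapped was close to that of the other GATA4 peaks. Of the 1153, 32 shared 1 bp or more with a TCF7L2 peak, 2.78% (1.97 to 3.89), against 2.98% of all autosomal GATA4 peaks and 275 of the 9166 others. The difference from the latter was -0.22 points, with an interval from -1.11 to 0.939. The share was 2.64% (1.77 to 3.93) in the peaks within 25 kb and 3.04% (2.69 to 3.43) on H3K27ac. By distance it was 5.12% (2.88 to 8.93) at 25 to 50 kb, 4.13% (2.19 to 7.66) at 50 to 100 kb, 1.29% (0.505 to 3.28) at 100 to 250 kb, 0.50% (0.0883 to 2.78) at 250 to 500 kb, 3.82% (1.64 to 8.62) at 500 to 1000 kb and 2.50% (0.688 to 8.66) beyond. These classes rest on 11, 9, 4, 1, 5 and 2 peaks. Without the chromosome 8 window the first was 3.32% (1.62 to 6.69), 7 of 211 peaks. Among peaks beyond 100 kb, 12 of 720 overlapped TCF7L2, 1.67% (0.956 to 2.89), against 20 of 433 at 25 to 100 kb, 4.62% (3.01 to 7.03). The latter class holds all 5 far peaks of the chromosome 8 window, each with TCF7L2. Its share without them was not computed, so no fall with distance is drawn from this contrast. Over all far peaks, the nearest TCF7L2 peak was a median of 2030 kb away, against 1042 kb for GATA4 peaks within 25 kb and 629.95 kb for those on H3K27ac. A TCF7L2 peak lay within 100 kb of 58 far peaks, 5.03% (3.91 to 6.45), against 15.8% of all autosomal GATA4 peaks, and 32 of the 58 were the overlapping ones. TCF7L2 peaks on H3K27ac, 83.4% of autosomal ones, are kept by the rule from lying within 10 kb of a far peak. The longer distances and the lower share within 100 kb therefore follow in part from the rule. The overlap share of far peaks could likewise come only from TCF7L2 peaks outside H3K27ac, so it is not wholly free of the rule.

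**Figure D3:**
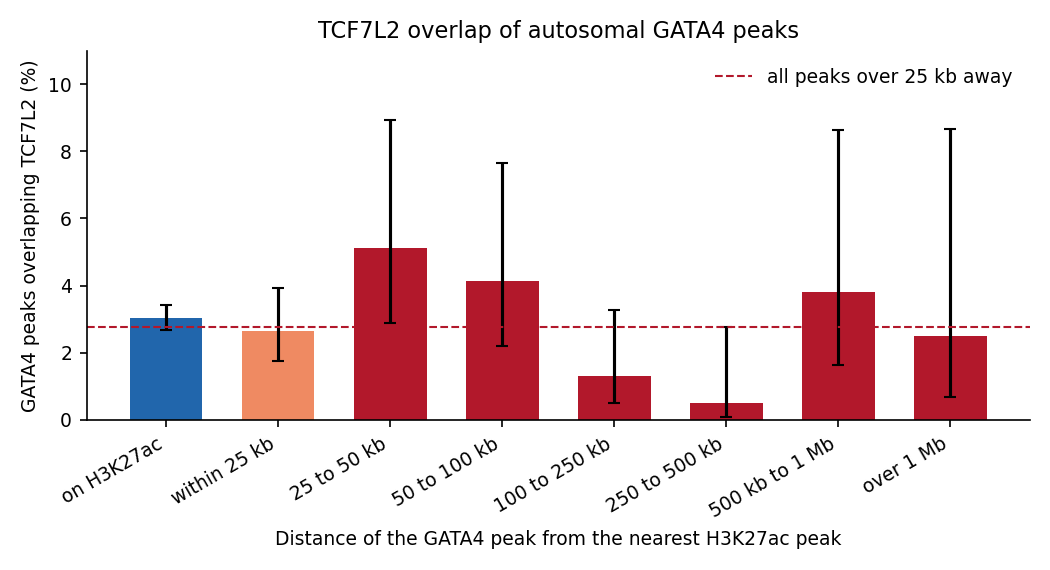
Share of autosomal GATA4 peaks that overlap a TCF7L2 peak (vertical axis, %) by distance from H3K27ac (horizontal axis), with 95% Wilson intervals; the dashed line is the 2.78% of all far peaks. The 6 far classes, in red, run from 0.50% to 5.12%, and their intervals hold the 3.04% of peaks on H3K27ac except at 250 to 500 kb, where the interval ends at 2.78%.

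Seen from TCF7L2, 68 of its autosomal peaks lay more than 25 kb from acetylation, and 33 of these, 48.5% (37.1 to 60.2), overlapped GATA4, against 40.4% of all autosomal TCF7L2 peaks. The share was 43.9% (31.8 to 56.7) for TCF7L2 peaks outside H3K27ac within 25 kb and 39.2% (35.5 to 43.1) on H3K27ac, and the difference from the latter was 9.32 points (-2.79 to 21.5), an interval that holds 0. Without the chromosome 8 window the far share was 28 of 58, 48.3%. TCF7L2 midpoints were 49.3-fold denser on H3K27ac than far from it.

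Where both factors met far from acetylation, most pairs of peaks, but not all, were nearly congruent. The midpoints of the 32 overlapping pairs were a median of 5.5 bp apart (3 to 13), with quartiles of 2.5 and 20.6 bp and a largest value of 120.5 bp. In the 252 pairs on H3K27ac the median was 57.5 bp (46 to 71.5), and in the 23 pairs within 25 kb of it 15 bp (2.5 to 34). The midpoints were within 10 bp in 20 of the 32 far pairs, 62.5% (45.3 to 77.1), against 16.6% of all autosomal pairs and 11.3% of the others. That was 53.8 points (36.04 to 68.6) above the 8.73% on H3K27ac, and 23.4 points (-3.10 to 45.7) above the 39.1% (22.2 to 59.2) within 25 kb, the latter an interval that holds 0. Both borders matched within 20 bp in 18 of the 32 far pairs, 56.2%, in 9 of the 23 pairs within 25 kb, 39.1%, and in 6 of the 252 pairs on H3K27ac, 2.38%. Narrow peaks that overlap keep their midpoints close, so the comparison was repeated for GATA4 peaks of 150 to 250 bp. There the median was 4.5 bp (2.5 to 11.5) in 24 far pairs, 12.75 bp (1 to 33.5) in 16 pairs within 25 kb and 60 bp (46 to 80.5) in 77 pairs on H3K27ac. The far pairs thus stood apart from those on H3K27ac by these intervals, and not from those outside it within 25 kb. These measures and settings were chosen after the values were seen, and the input, which could show background common to both antibodies, was not analysed here.

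**Figure D4:**
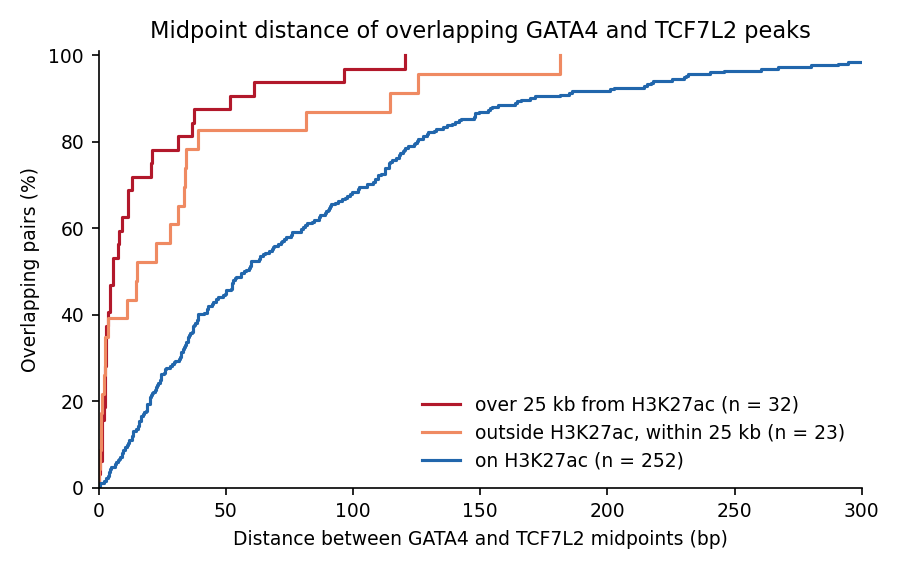
Cumulative share of overlapping GATA4 and TCF7L2 pairs (vertical axis, %) by distance between their midpoints (horizontal axis, bp, drawn to 300 bp) in the 3 distance groups. The 32 far pairs have a median of 5.5 bp and all lie within 120.5 bp, while the 252 pairs on H3K27ac have a median of 57.5 bp.

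The far GATA4 peaks that carried TCF7L2 were also wider than the rest. Their median was 214 bp (199 to 229), against 147 bp (143 to 152) for the 1121 without TCF7L2. Only 2 of the 32 had the common width of 125 bp, compared with 349 of 1121, 31.1%. Whether wide peaks overlapped TCF7L2 more often through their width alone was not tested. On H3K27ac the medians with and without TCF7L2 were 262 bp (236 to 293) and 194 bp (191 to 197). The widest of the 32, of 411 bp, stood on chromosome 6 from 125826857 to 125827267, 125 kb from H3K27ac, and wholly contained a TCF7L2 peak of 202 bp. The second, of 404 bp on chromosome 8 from 15519766 to 15520169, contained a TCF7L2 peak of 373 bp. A peak of 300 bp on chromosome 8 (14307050 to 14307349) overlapped 2 TCF7L2 peaks, the only far peak to do so. A far peak, 276 bp wide, on chromosome 5 (60434075 to 60434350), 1925 kb from acetylation, held a TCF7L2 peak of 264 bp. On chromosome 1 a far peak of 265 bp (130953841 to 130954105) lay wholly within a TCF7L2 peak of 327 bp. The remaining 5 of the 10 widest were of 239 bp on chromosome 11 (121843618 to 121843856), 236 and 230 bp on chromosome 9 (48025631 to 48025866 and 115259877 to 115260106) and 235 and 229 bp on chromosome 6 (103264539 to 103264773 and 132413666 to 132413894). They held TCF7L2 peaks of 230, 145, 217, 223 and 151 bp, and the nearest other GATA4 peak was 62.5 kb to 706 kb away.

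One place departed from this pattern of single shared peaks. Of the 32 peaks, 6 had another GATA4 peak within 10 kb, and 5 of the 6 belonged to a cluster on chromosome 8, in the window from 57900001 to 58000000. The cluster spanned 22.4 kb near the end of the acetylation-free gap of 2132 kb. Its 5 GATA4 peaks were 157, 172, 137, 158 and 206 bp wide, began at 57975297, 57978677, 57980699, 57995187 and 57997388, and lay 50.9, 47.5, 45.5, 31.0 and 28.7 kb from an H3K27ac peak of 257 bp. Each overlapped 1 TCF7L2 peak. The window held 10 TCF7L2 peaks in all, 14.7% of those far from acetylation, and the other 5 TCF7L2 peaks, from 57977297 to 57991139, had no GATA4. GATA4 was called at both ends of the run, and the stretch between its left 3 and right 2 peaks held 4 TCF7L2 peaks and no GATA4 peak. Without this window, 27 of 1148 far GATA4 peaks overlapped TCF7L2, 2.35%.

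**Figure D5:**
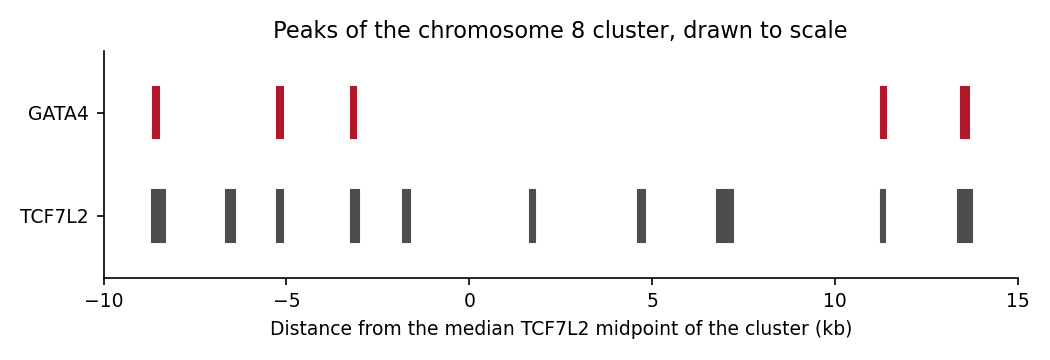
Peaks of the chromosome 8 cluster by distance from its median TCF7L2 midpoint (horizontal axis, kb), with GATA4 above and TCF7L2 below. All 5 GATA4 peaks stand over a TCF7L2 peak, and 5 of the 10 TCF7L2 peaks stand alone.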

How the data were processed

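Chromatin immunoprecipitation with sequencing was made with antibodies against TCF7L2, GATA4 and H3K27ac, with 2 µg per precipitation per the labels. The authors' deposited files are 1 list per antibody of peak positions in bp (chromosome, start, end), with no score. The submitters' processing notes name the mm9 build and list MACS2 (2.1.1.20160309.0), Bowtie2 (2.2.6.2), deepTools and FastQC (0.10.0), without their settings. Neither the peak threshold nor the way replicates became 1 list is given in the sources used here.

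Distances run border to border, overlap means 1 bp or more, and densities use midpoints and the sequence between the first and last listed positions. Shares carry 95% Wilson intervals, differences Newcombe intervals, densities exact Poisson intervals and medians order-statistic intervals. No p-value was computed. The interval functions were checked on simulated data. Named regions are the 10 widest members, the 10 widest with TCF7L2, the 5 farthest, the 5 on each side of the limit, and the 5 fullest windows and gaps, with gaps tied for the last place. Members and lists were chosen with earlier results of these data known. Sequence and gene comparisons planned for mm9 were not run. The software was matplotlib 3.10.9, scipy 1.17.1, pandas 2.3.3 and numpy 2.4.6 under Python 3.11.15.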

Additional observations from a re-analysis of the deposited data

Results flagged for a closer look

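The X chromosome was outside the rule, and 111 of its 197 GATA4 peaks would meet the same distance limit, 56.3% (49.4 to 63.1), against 11.2% on the autosomes. This drew attention as signal in data the comparisons do not use. The far sequence made up 80.7% of X, and its density of such peaks was 0.842 per Mb (0.693 to 1.01), beside 0.868 on the autosomes. Their median width was 126 bp, against 149 bp for far autosomal peaks. Exactly 125 bp was the width of 53 of the 111 (47.7%), against 30.4% of far autosomal peaks. TCF7L2 overlapped 2 of the 111, a count too small to set beside the 2.78% of far autosomal peaks.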

How the results depend on the processing

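Of 85 other settings, 79 were planned and 6, all on midpoint distances, were chosen after seeing the data. In all, 79 stayed within the counting interval or within 1.5 times the count. Most settings only left out 1 chromosome, which keeps most of the same peaks and could hardly move a value. The 6 settings that moved a value were all of other kinds, so the tally says little about stability. With a limit of 100 kb the far GATA4 peaks numbered 720 and 1.67% overlapped TCF7L2. The count is lower by construction. The share leaves out the peaks at 25 to 100 kb, of which 4.62% overlapped with the chromosome 8 window kept in. A GATA4 neighbour was found for 4.94% within 1 kb and 21.1% within 50 kb. The far density was 1.05 per Mb with H3K27ac peaks below the list's median width left out, which leaves 1596 far peaks, and 0.814 with peaks joined across 10 kb. Limits of 10 and 50 kb gave 1447 and 938 far peaks. With each of 19 chromosomes left out, TCF7L2 overlap ran from 2.21% to 2.99%, the median width from 147 to 150 bp and the share with a neighbour within 10 kb from 11.3% to 12.2%. The added settings put the share of pairs with midpoints within 10 bp, or borders within 20 bp, between 56.2% and 70.8%. No paired analysis was possible because each antibody has 1 list.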

Other observations

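The GATA4 list also held 13 peaks on unplaced contigs and 1 on Y; the H3K27ac list had 0 peaks on such contigs, so no distance could be taken there.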
